A study of Mus musculus with 6 samples.

Results

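The synaptonemal complex and chromosome axis genes are 8 genes of the protein scaffold that holds homologous chromosomes together in meiosis: Sycp1, Syce1, Syce2, Tex12, Sycp2, Sycp3, Hormad1 and Hormad2. They were chosen by name from the platform annotation, with earlier results of these data known. The brightest probe set was taken where a gene had several, and all 8 were measured among 19938 genes. Expression was read on 6 GeneChip Mouse Gene 1.0 ST arrays, each hybridised with RNA of embryonic stem cells (mouse line V6.5) carrying a doxycycline-inducible short hairpin RNA. The groups were cells with hairpin 1 or hairpin 2 against Pcgf6 grown with doxycycline (dox) at 1 µg/ml, the same 2 lines without dox, scrambled-hairpin cells with dox and scrambled-hairpin cells without dox, with 1 array for each line and condition. All groups shared the V6.5 background, an integrated inducible hairpin and growth with leukemia inhibitory factor on inactivated DR4 mouse embryo fibroblasts, the feeder cells. Whether a line was 1 clone or a pool, and how long dox was given, is not given in the sources used here. Values are log2 expression, so a difference of 1 is a doubling. Their precision is limited by the number of arrays.

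In meiotic prophase each pair of sister chromatids forms a protein axis, and the axes of homologous chromosomes are then zipped together along their length. SYCP2 and SYCP3 build the axis core and HORMAD1 and HORMAD2 bind to it. SYCP1 forms the transverse filaments that bridge both axes, and SYCE1, SYCE2 and TEX12 form the central element where those filaments meet. Stem cells in culture divide by mitosis and do not use this scaffold. PCGF6 is a polycomb protein of the repressive complex PRC1.6, whose other subunits include the DNA-binding proteins MGA, MAX and E2F6, and germ-cell genes are known targets of that complex.

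Pcgf6 measured 9.39 and 9.27 with dox under hairpins 1 and 2, against 11.56 and 11.70 without dox, and 11.82 with dox against 11.80 without in the scrambled line. It fell by 2.30 (SE 0.10, n = 2 against 2, limma adjusted p = 0.000846). The 10 stem cell markers averaged between 11.81 and 12.06 on every array, and all 10 lay above the lower quartile of all genes. The feeder fibroblast markers, of which 19 of 20 were measured, averaged 10.46 and 10.75 with dox under hairpins 1 and 2, against 10.45 and 10.31 without, and 10.15 with dox against 9.58 without in the scrambled line. None of the 19 lay below the lower quartile. In a mixed sample, fewer cells of a type and less RNA per cell cannot be told apart.

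Promoter sequences of 4 genes are shown because the genes represent the different responses described below: Syce1 and Hormad2 rose with Pcgf6 knockdown, while Sycp3 and Hormad1 did not pass the test. Each is a window from 250 bases before to 50 bases after an annotated transcript start in RefSeq (GRCm38.p6), 5′ to 3′ on the gene's strand. Capitals mark matches, on either strand, to 3 motifs: the E-box CACGTG, a site type bound by MGA with MAX and by other proteins, the E2F6 motif TTCCCGC, which is printed as GCGGGAA where it lies on the other strand, and the T-box half-site GGTGTGA. The Syce1 window is chr7:140787805-140788104 (minus strand), that of Hormad2 chr11:4441033-4441332 (minus), that of Sycp3 chr10:88459337-88459636 (plus) and that of Hormad1 chr3:95559427-95559726 (plus).
Syce1: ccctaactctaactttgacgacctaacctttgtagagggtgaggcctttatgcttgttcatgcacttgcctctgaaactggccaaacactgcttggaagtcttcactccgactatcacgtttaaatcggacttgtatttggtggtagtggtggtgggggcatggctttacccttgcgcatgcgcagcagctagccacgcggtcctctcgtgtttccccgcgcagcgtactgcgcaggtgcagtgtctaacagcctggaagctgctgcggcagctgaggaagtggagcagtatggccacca
Hormad2: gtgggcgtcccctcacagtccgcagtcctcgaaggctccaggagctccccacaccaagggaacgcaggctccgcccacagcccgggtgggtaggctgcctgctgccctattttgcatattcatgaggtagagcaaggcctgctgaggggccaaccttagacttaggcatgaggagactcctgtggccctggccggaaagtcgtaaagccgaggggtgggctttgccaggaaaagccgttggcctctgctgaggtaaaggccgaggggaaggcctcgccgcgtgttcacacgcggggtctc
Sycp3: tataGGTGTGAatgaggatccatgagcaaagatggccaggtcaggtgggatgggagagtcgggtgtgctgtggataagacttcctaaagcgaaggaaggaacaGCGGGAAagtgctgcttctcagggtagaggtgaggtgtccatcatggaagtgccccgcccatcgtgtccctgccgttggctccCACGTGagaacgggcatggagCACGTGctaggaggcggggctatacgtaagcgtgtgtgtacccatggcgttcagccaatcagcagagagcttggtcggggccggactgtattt
Hormad1: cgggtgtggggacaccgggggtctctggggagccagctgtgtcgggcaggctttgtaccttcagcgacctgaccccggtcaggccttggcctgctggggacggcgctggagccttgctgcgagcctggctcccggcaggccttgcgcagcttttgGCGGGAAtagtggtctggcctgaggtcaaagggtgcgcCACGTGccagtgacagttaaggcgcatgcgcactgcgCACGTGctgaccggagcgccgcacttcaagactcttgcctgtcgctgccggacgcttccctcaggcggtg
The Syce1 and Hormad2 windows hold no match to any of the 3 motifs. The Sycp3 window has E-boxes that begin at -64 and -43 from the start, an E2F6 match that begins at -147 and a T-box half-site at -246. In Hormad1 the E-boxes begin at -57 and -20 and the E2F6 match at -95. The windows of Sycp1 and Tex12, not shown, also hold matches, and for both genes the induced hairpin arrays were the highest. Whether motif matches go with the response was not tested.

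All 8 genes had at least 1 window, and Hormad1 and Syce2 had 2, which gave 10 windows. An E-box was found for 5 of the 8 genes, namely Sycp1, Sycp3, Hormad1, Tex12 and Syce2, against 9.50% of the 15614 measured genes with a window. The E2F6 motif was found for 4, the same genes without Sycp1, against 7.40% of genes. These 4 had both motifs in 1 window, against 0.743% of genes, and no match overlapped another. Sycp3 alone held the T-box half-site, found for 4.39% of genes. For Syce2 the matches lay in the window of the second start only. The windows of Syce1, Sycp2 and Hormad2 held none of the 3 motifs, which says only that these letters are not in those windows. The share of CG pairs relative to that expected from base content ran from 0.363 in Sycp2 to 0.962 in the second Syce2 window among the 10 windows of the 8 genes. The median over the windows of all measured genes was 0.612.

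**Figure D1:**
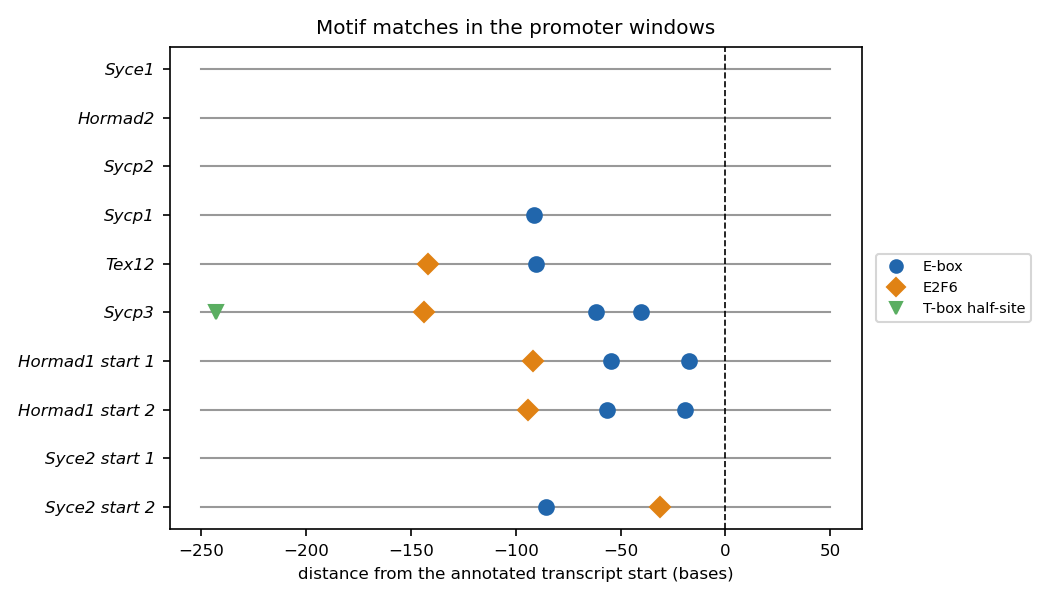
Positions of motif matches (symbols) in the promoter windows of the 8 genes; the x axis is the distance in bases from the annotated transcript start (dashed line), and each grey line is 1 window. Hormad1 and Syce2 have 2 windows each; Syce1, Hormad2 and Sycp2 show no match.

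The main comparison asked which of the 8 genes changed when the Pcgf6 hairpins were induced. Syce1, Hormad2 and Sycp2 rose, 0 fell and 5 did not pass. These are 3 of 8 genes called higher, where 0.191% of all genes were called higher and 0.01% lower. Since the 8 were chosen with earlier results of these data known, counts set beside all genes are descriptive and not an independent test. Sycp1 and Tex12 were higher with dox under both hairpins without passing the threshold over all genes. Sycp3 and Hormad1 differed less, and Syce2 measured slightly lower. The median change of the 8 genes was 0.89 under hairpin 1 and 0.66 under hairpin 2, against 0.00 and -0.02 over all genes. For 5 of the 8, namely Syce1, Hormad2, Sycp2, Sycp1 and Tex12, both induced hairpin arrays lay above the 4 other arrays, which 11.1% of all genes did. Apart from Tex12, the same genes, 4 of the 8, were higher by at least 1.5-fold under each hairpin, where 0.336% of all genes were.

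**Figure D2:**
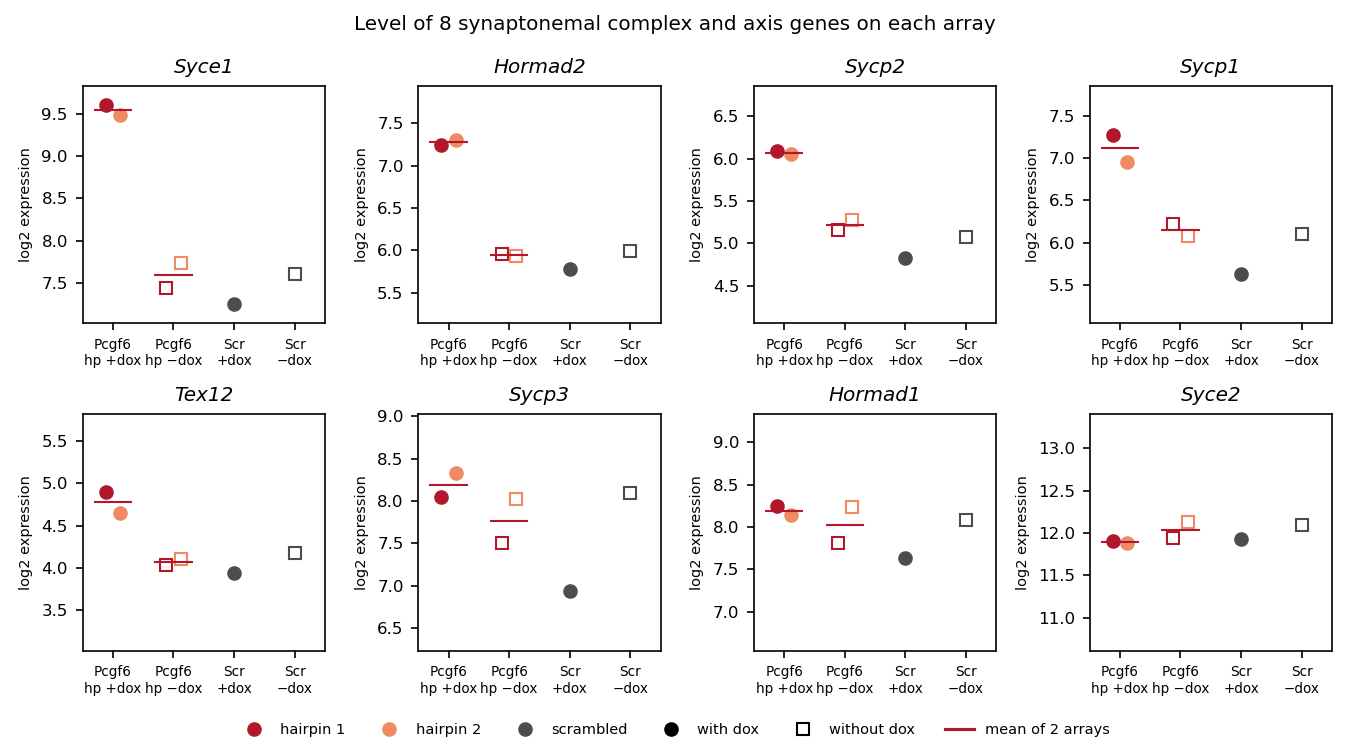
Log2 expression (y axis, each panel spanning the same number of log2 units) of the 8 genes on each of the 6 arrays, grouped along x by hairpin and dox; red lines are means of 2 arrays. In the panels of Syce1, Hormad2, Sycp2, Sycp1 and Tex12 both induced hairpin arrays lie above the 4 others. The induced scrambled array lies lowest in every panel except that of Syce2, at 6.94 in that of Sycp3.

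The transverse filament gene Sycp1 measured 7.27 and 6.96 with dox under hairpins 1 and 2, against 6.23 and 6.08 without dox, and 5.63 with dox against 6.10 without in the scrambled line. Both induced hairpin arrays were above every other array, and the induced scrambled array was the lowest. The change under the hairpins was 0.96 (SE 0.13, n = 2 against 2, limma adjusted p = 0.0707), a ratio of 1.94. It did not pass in that fit. With the hairpin as a block, which pairs the arrays of each line, Sycp1 passed (limma adjusted p = 0.0192), as it did with median centring (adjusted p = 0.0471) and an intensity trend (adjusted p = 0.0484). It passed in none of the fits that left out 1 hairpin array (limma adjusted p between 0.0558 and 0.482).

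Among the central element genes, Syce1 had the largest change of the 8. It measured 9.60 and 9.49 with dox under hairpins 1 and 2, against 7.44 and 7.74 without dox, and 7.25 with dox against 7.60 without in the scrambled line. The hairpin groups were far apart relative to their spread, at 9.54 ± 0.08 with dox and 7.59 ± 0.21 without (SD, n = 2 each). Syce1 rose by 1.95 (SE 0.12, 95% interval 1.66 to 2.25, limma adjusted p = 0.00301), or 3.88-fold, and ranked 7 of 19938 genes by the size of the rise. It passed under all 13 other settings tried for this comparison, with adjusted p between 0.00149 and 0.0391 by limma.

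Tex12, whose product joins SYCE2 in the central element, measured 4.90 and 4.65 with dox under hairpins 1 and 2, against 4.04 and 4.11 without dox, and 3.94 with dox against 4.17 without in the scrambled line. Again both induced hairpin arrays were highest, on a probe set that the filter on the dimmest 25% of genes removes. Its change was 0.70 (SE 0.11, limma adjusted p = 0.113) and did not pass. Syce2, the partner of Tex12, was the exception among the central element genes. It measured 11.91 and 11.88 with dox, against 11.94 and 12.13 without, and 11.93 with dox against 12.10 without in the scrambled line. The induced hairpin arrays lay just below the uninduced ones, and the range over all 6 arrays was 0.24. The change of Syce2 under the hairpins was -0.14 (SE 0.10, 95% interval -0.37 to 0.10, limma adjusted p = 0.744).

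Of the axis core genes, Sycp2 rose. It measured 6.08 and 6.05 with dox under hairpins 1 and 2, against 5.16 and 5.28 without dox, and 4.83 with dox against 5.07 without in the scrambled line. The hairpin groups did not overlap, and the induced scrambled array was lowest. The rise of Sycp2 was 0.85 (SE 0.09, 95% interval 0.64 to 1.06, limma adjusted p = 0.0367), or 1.80-fold. This call ended when any 1 of the 4 hairpin arrays was left out (limma adjusted p between 0.156 and 0.199). It also ended with the feeder marker level as a covariate (adjusted p = 0.308) and over all probe sets (adjusted p = 0.182). Leaving out the dimmest 25% or 50% of genes removes Sycp2 from the test.

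Sycp3, the other axis core gene, followed a different pattern. It measured 8.05 and 8.33 with dox under hairpins 1 and 2, against 7.51 and 8.02 without dox, and 6.94 with dox against 8.09 without in the scrambled line. The induced and uninduced hairpin arrays nearly met, and the uninduced scrambled array lay within the range of the induced hairpin arrays. Within each line Sycp3 was higher with dox, by 0.54 under hairpin 1 and 0.31 under hairpin 2. The induced scrambled array stood below all others, as it did for each of the 8 genes except Syce2. Under the hairpins the change of Sycp3 was 0.42 (SE 0.18, 95% interval -0.02 to 0.86, limma adjusted p = 0.59), which did not pass. With the hairpin as a block, which pairs the arrays of each line, it did not pass either (limma adjusted p = 0.28). The change was 0.165 without the uninduced array of hairpin 1 and 0.681 without that of hairpin 2.

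The HORMA-domain axis genes differed from each other. Hormad2 measured 7.25 and 7.31 with dox under hairpins 1 and 2, against 5.95 and 5.94 without dox, and 5.77 with dox against 5.99 without in the scrambled line. The 4 arrays other than the induced hairpin arrays lay within 0.22 of each other, and each hairpin gave nearly the same change, 1.29 and 1.37. Hormad2 rose by 1.33 (SE 0.08, 95% interval 1.13 to 1.53, limma adjusted p = 0.00301), or 2.52-fold. The call ended without the uninduced array of hairpin 1 (adjusted p = 0.0656) or of hairpin 2 (adjusted p = 0.0691), and with the feeder marker level as a covariate (adjusted p = 0.0705), by limma in each case.

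Hormad1 measured 8.24 and 8.14 with dox under hairpins 1 and 2, against 7.81 and 8.24 without dox, and 7.63 with dox against 8.08 without in the scrambled line. The hairpin groups overlapped, and the changes differed in sign, at 0.44 under hairpin 1 and -0.10 under hairpin 2. The 2 lines lay closer together with dox than without. The mean change of Hormad1 was 0.17 (SE 0.15, 95% interval -0.19 to 0.53, limma adjusted p = 0.799). A second, dimmer probe set annotated to Hormad1 gave 0.22 and 0.16 under hairpins 1 and 2 and -0.59 in the scrambled pair. Whether its probes lie in the Hormad1 gene was not checked.

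**Figure D3:**
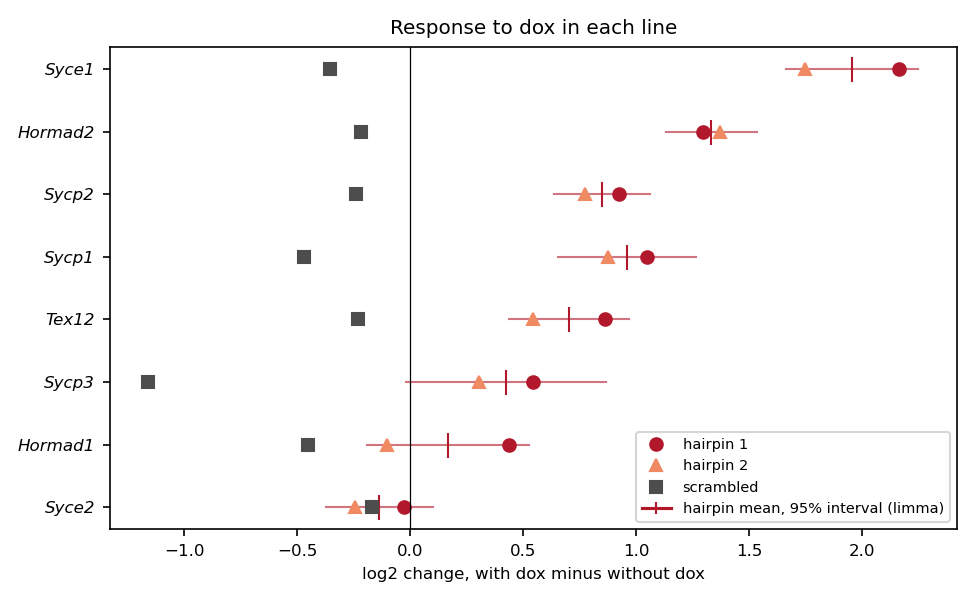
Log2 change with dox minus without dox (x axis) of each gene (rows) under hairpin 1, hairpin 2 and the scrambled hairpin, 1 array against 1 for each point; vertical ticks and lines are the hairpin mean and its 95% interval from limma. The scrambled square lies below 0 for all 8 genes, and the hairpin points of Syce1 lie furthest right, at 2.16 and 1.75.

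The scrambled pair, 1 array against 1 and without a test, shows what accompanied dox in the absence of a Pcgf6 hairpin. All 8 genes measured lower with dox than without in it, where 53.4% of all genes did, and their median difference was -0.30, against -0.01 over all genes. Sycp3 measured -1.16, the most negative of all 19938 genes, and was the 1 gene of the 8 lower by at least 1.5-fold, where 0.211% of all genes were. Sycp1 measured -0.47 and Hormad1 -0.45, with 0.627% and 0.782% of all genes more negative. The 5 others lay between -0.36 and -0.17. Other lists also measured lower in this pair, with 11 of 12 recombination and telomere genes below 0 (median -0.27) and 9 of 10 stem cell markers (median -0.08). The same held for all 8 listed markers of male germ cells after meiosis (median -0.11). All 19 feeder markers were higher with dox in this pair, with a median of 0.59, and all 19 were higher under hairpin 2, with a median of 0.42. Under hairpin 1, 9 of the 19 were higher. With the feeder marker level as a covariate the change under the hairpins was 2.12 for Syce1 (limma adjusted p = 0.0253). It was 1.29 for Hormad2 (limma adjusted p = 0.0705) and 0.91 for Sycp2 (limma adjusted p = 0.308), which did not pass. The covariate leaves fewer residual degrees of freedom than the main fit. The part of feeder RNA in the scrambled values was not tested.

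The scrambled pair was then set against the hairpin response in 1 model. The response of Syce1 was higher with the Pcgf6 hairpins than with the scrambled hairpin by 2.31 (SE 0.21, limma adjusted p = 0.0383), and that of Hormad2 by 1.55 (SE 0.15, limma adjusted p = 0.0416). These 2 of 8 genes were called higher, where 0.0652% of all genes were. Neither call held when any 1 of the 4 hairpin arrays was left out (limma adjusted p between 0.0706 and 0.142 for Syce1 and between 0.0934 and 0.227 for Hormad2) or with the feeder marker level as a covariate.

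Sycp3 had the second largest difference from scrambled of the 8 genes in size, at 1.58 (SE 0.32, 95% interval 0.82 to 2.35), but did not pass over all genes (limma adjusted p = 0.566). Its difference combined a hairpin change of 0.42 with the scrambled change of -1.16, and the scrambled arrays had no replicate. With the hairpin as a block, the difference of Sycp3 also did not pass (limma adjusted p = 0.0509). Sycp1 differed by 1.43 (SE 0.22, limma adjusted p = 0.234), Sycp2 by 1.09 (SE 0.15, limma adjusted p = 0.189) and Tex12 by 0.93 (SE 0.19, limma adjusted p = 0.592). Hormad1 differed by 0.62 (SE 0.26, 95% interval -0.00140 to 1.24) and Syce2 by 0.03 (SE 0.17, 95% interval -0.38 to 0.44). Neither passed (limma adjusted p = 0.999 for each).

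**Figure D4:**
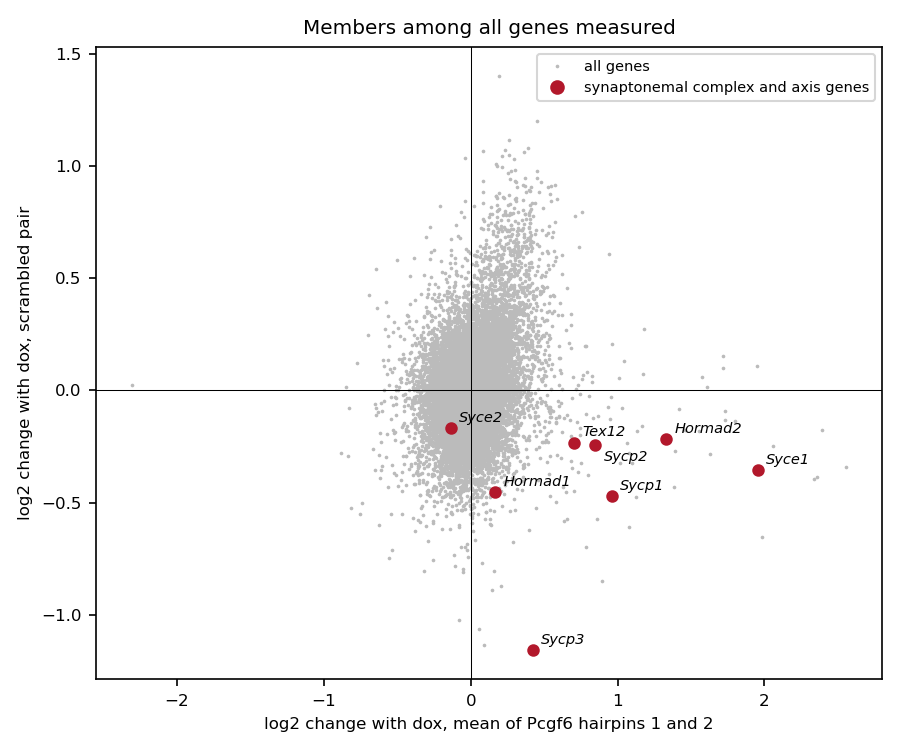
Log2 change with dox under the Pcgf6 hairpins (x axis, mean of 2 lines) against that in the scrambled pair (y axis) for all 19938 genes (grey) and the 8 genes (red). Syce1, Hormad2, Sycp1, Sycp2 and Tex12 lie to the right, Sycp3 at the bottom at -1.16, and Syce2 within the mass of genes.

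Setting the induced hairpin arrays against the induced scrambled array, a comparison added after the data were seen, compares cells that all received dox. The reference is 1 array without a replicate, and it was the lowest array for each of the 8 genes except Syce2. Feeder markers averaged 10.15 on it, against 10.46 and 10.75 on the induced arrays of hairpins 1 and 2. Syce1 was higher by 2.30 (SE 0.15), Hormad2 by 1.505 (SE 0.10), Sycp1 by 1.48 (SE 0.16, limma adjusted p = 0.031) and Sycp2 by 1.24 (SE 0.11, limma adjusted p = 0.0165). These 4 of 8 genes passed, where 0.181% of all genes were called higher. Sycp3 was 1.25 higher (SE 0.22, limma adjusted p = 0.207) and Tex12 0.83 higher (SE 0.13, limma adjusted p = 0.154), without passing. Syce2 measured -0.03 (SE 0.12) and Hormad1 0.56 (SE 0.18), and neither passed. Against the 4 other arrays pooled, also added after the data were seen, Tex12 passed besides these 4, by 0.71 (SE 0.10, limma adjusted p = 0.027), where 0.351% of all genes were called higher. All these comparisons share the induced hairpin arrays.

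Before induction no difference between the lines passed the test. Uninduced Pcgf6-hairpin cells minus uninduced scrambled cells gave between -0.33 for Sycp3 (SE 0.22) and 0.15 for Sycp2 (SE 0.11). None of the 8 passed (limma adjusted p between 0.79 and 0.994) and none had an unadjusted p under 0.05, which 8.06% of all genes had. Limma called 0% of all genes higher or lower in this comparison. The scrambled side is 1 array, so the lack of a call does not show that the lines were alike before dox. Feeder markers averaged 10.45 and 10.31 on the uninduced arrays of hairpins 1 and 2, against 9.58 on the uninduced scrambled array.

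The 5 genes whose induced hairpin arrays stood highest varied together over the 6 arrays, with a Pearson r between 0.952 for Sycp1 with Hormad2 and 0.993 for Syce1 with Hormad2. Sycp3 and Hormad1 had an r of 0.912 with each other and between 0.574 and 0.704 with those 5. Syce2 had an r between -0.572 and 0.325 with the 7 others. These values describe 6 arrays in which the same 2 induced arrays are high, and carry no test.

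The genes most like the 3 members of widest range were sought among 456 other genes that ranged over at least 1 log2 unit on the 6 arrays. Closest to Syce1 were Tex13b (r = 0.997), Tex11 (r = 0.997), which acts in meiotic recombination, and Sohlh2 (r = 0.996), a germ-cell transcription factor gene. Closest to Hormad2 were Rhox13 (r = 0.998), a reproductive homeobox gene, Piwil2 (r = 0.997), a germ-line Argonaute gene, and Tex11 (r = 0.997). Closest to Sycp1 were Tdrd1 (r = 0.987), a piRNA pathway gene, Prr23a3 (r = 0.983) and Tent5d (r = 0.979). Each r is over 6 arrays.

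Genes of the meiotic scaffold and of the steps around it were described from lists. Since 0.191% of all genes were called higher and 0.01% lower, a short list without a call is near that share. Six6os1, a further central element gene and the 1 of 4 other synaptonemal complex genes with a probe set of its own, measured 8.73 and 8.75 with dox under hairpins 1 and 2, against 7.98 and 8.18 without, and 7.39 with dox against 7.96 without in the scrambled line. Both induced hairpin arrays were highest. Its change was 0.66 (SE 0.10, limma adjusted p = 0.105), which did not pass.

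None of the 6 measured partners and regulators of the HORMAD proteins passed, and their median change was 0.35, against -0.01 over all genes. Iho1, which acts with HORMAD1 in forming double-strand breaks, measured 7.35 and 6.91 with dox under hairpins 1 and 2, against 5.90 and 6.09 without, a change of 1.13 (SE 0.16, limma adjusted p = 0.082). Iho1 measured 5.83 with dox and 6.01 without in the scrambled line, so its induced hairpin arrays were also the highest. The break-forming genes Rec114 and Mei1 measured 0.54 (SE 0.15) and 0.51 (SE 0.13). Trip13, which encodes the enzyme that takes HORMAD proteins off the synapsed axis, measured -0.04 (SE 0.08, limma adjusted p = 0.929).

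Of the 4 meiotic cohesin genes, whose rings form the base of the axis, 0 passed, with a median of 0.23. Rad21l measured 0.46 (SE 0.13), Rec8 0.28 (SE 0.10), Stag3 0.19 (SE 0.09) and Smc1b -0.02 (SE 0.11). In the scrambled pair Smc1b measured -0.71, Stag3 -0.34 and Rec8 -0.24. Thus 3 of these 4 were lower with dox there, where 53.4% of all genes were.

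Of the 12 measured recombination and telomere attachment genes 1 rose, 0 fell and 11 did not pass. The gene that rose was Tex11, by 2.34 (SE 0.09, limma adjusted p = 0.000789), and the median of the list was 0.09. The strand exchange gene Dmc1 measured -0.01 (SE 0.08) and the crossover gene Msh4 -0.12 (SE 0.11). Of the 4 meiotic entry genes Dazl, a germ-cell RNA-binding protein gene, rose, by 0.94 (SE 0.09, limma adjusted p = 0.0202), and 3 did not pass. Meioc, which is needed to maintain meiotic prophase, measured 0.90 (SE 0.11, limma adjusted p = 0.066), and -0.85 in the scrambled pair. Stra8, the gatekeeper of meiotic entry, measured 0.04 (SE 0.09, limma adjusted p = 0.944).

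Counterparts that work outside meiosis gave 0 calls, where 0.191% of all genes were called higher and 0.01% lower, so 0 is near that share. The 4 listed HORMA-domain genes with roles outside meiosis, Mad2l1, Mad2l2, Atg13 and Atg101, measured between -0.05 and 0.13, with a median of -0.02. Of the 5 mitotic cohesin genes Stag2 had the largest change, -0.32 (SE 0.09, limma adjusted p = 0.426), and the median was -0.01.

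**Figure D5:**
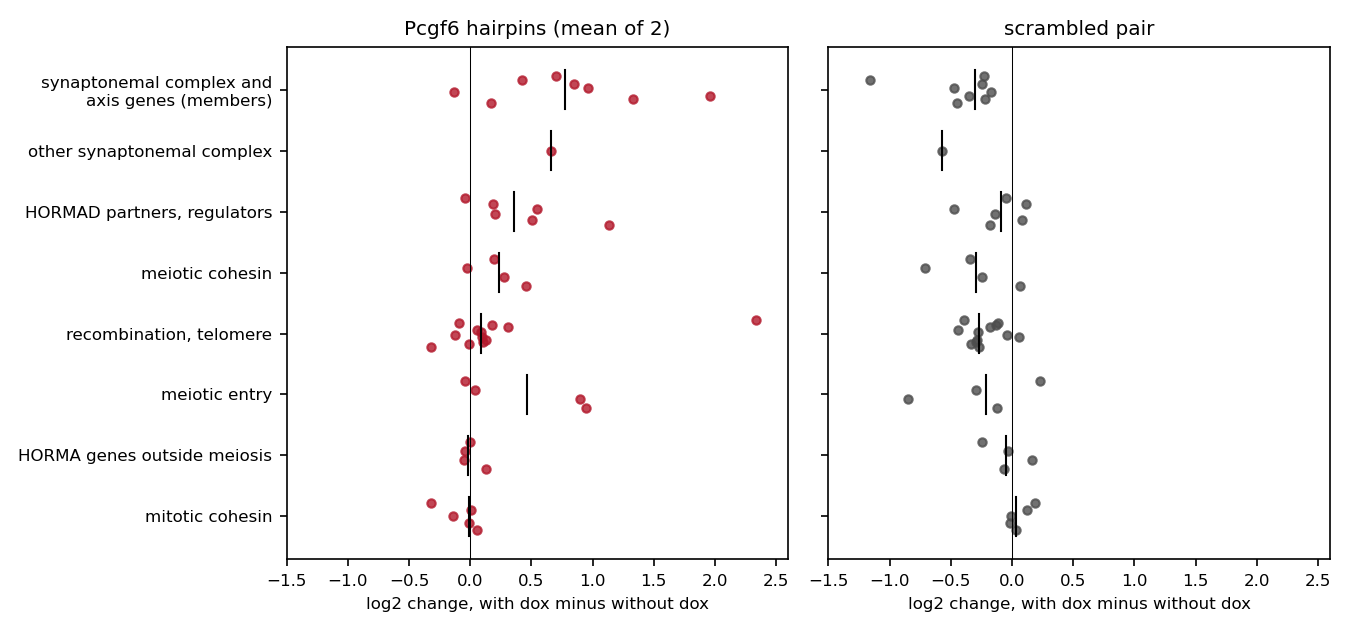
Log2 change with dox minus without dox (x axis) for the genes of each list (rows); points are genes, black bars are list medians, the left panel is the mean of both Pcgf6 hairpins and the right panel the scrambled pair. The 8 members have a median of 0.78 on the left and -0.30 on the right, and the medians of the HORMA genes outside meiosis and of mitotic cohesin lie near 0 in both panels.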

How the data were processed

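Total RNA of 6 stem cell samples was hybridised to 1 array each. The deposited values are log2 expression. The submitters' processing notes name Affymetrix Power Tools with RMA, which corrects the background, equalises the distributions of the arrays and summarises probe sets, and so hides a shift common to most genes. Versions and the genome build are not given in the sources used here. Values ran from 2.28 to 14.27, correlations between arrays lay between 0.990 and 0.997, and no value column was left unmatched (0).

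Of 35556 probe sets, 21789 had 1 symbol in the platform annotation, 1621 several and 12146 none. Those with 1 symbol gave 19938 genes, the brightest probe set being used for the 999 genes with several; no gene was filtered out. By Entrez identifier 21698 of the 21789 probe sets were found in RefSeq (GRCm38.p6), used for current names. List genes with no probe set of their own (Syce3, Fkbp6, Sycp2l, Ankrd31, Mnd1, Rnf212, Ccdc155 and Fbn1) were left out.

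From these values a model of 4 group means over all 6 arrays was fitted with limma 3.58.1 in R 4.3.3, with 2 residual and 4.44 prior degrees of freedom and no block. Tests were two-sided, and p-values were adjusted by Benjamini-Hochberg over all genes, threshold 0.05. The single scrambled arrays were assumed to vary like the hairpin arrays. Separate cultures are not stated in the labels, so the p-values cover just the spread among these arrays, part of which may be technical. SE is limma's moderated standard error. The hairpin number pairs the arrays of a line, since both carry the same hairpin (correlation of deviations from group means, 0.181).

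Named genes were the 8 members, Pcgf6, the genes of the stated lists and, as most alike, the 3 genes of highest Pearson r with each of the 3 members of largest range, skipping predicted and RNA-only models. Members and lists were chosen with earlier results of these data known. Alternatives were a hairpin block, median centring, quantile normalization, filters on the dimmest 25% and 50% of genes, an intensity trend, the mean of a gene's probe sets, all probe sets, a feeder covariate and leaving out each hairpin array.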

Additional observations from a re-analysis of the deposited data

Results flagged for a closer look

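Dox gave different responses in the Pcgf6-hairpin and scrambled lines, by limma's test of the difference itself, for Syce1 (2.31, adjusted p = 0.0383) and Hormad2 (1.55, adjusted p = 0.0416) among the 8 genes. It also differed for 2 genes named beside them, the recombination gene Tex11 (2.73, adjusted p = 0.00645) and the targeted gene Pcgf6 (-2.33, adjusted p = 0.0256). Positive values mean a higher response with the Pcgf6 hairpins. The scrambled response comes from 1 array against 1. Neither Syce1 nor Hormad2 kept this call with any 1 hairpin array left out, nor over all probe sets (adjusted p = 0.238 for Syce1 and adjusted p = 0.226 for Hormad2).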

How the results depend on the processing

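Syce1 kept its call with dox in the Pcgf6-hairpin cells under all 13 other settings and with both added references. The count of the 8 genes called was 1 without the dimmest 50% of genes, which leaves 4 of the 8 in the test, 1 with the feeder marker level as a covariate, between 1 and 2 with each hairpin array left out, and 5 with the 4 other arrays pooled as the reference, chosen after seeing the data. Syce1 was called in each of these. With the hairpin as a replicate block 4 were called, Sycp1 being added, as with median centring and an intensity trend, and the block changed no other call of the 8 genes. For the difference from scrambled the count was 1 with quantile normalization again, 1 without the dimmest 25% of genes, and 0 over all probe sets, without the dimmest 50% of genes, with the feeder covariate and with each hairpin array left out (0 to 0); it stayed at 2 with the replicate block. Between uninduced lines it was 0 under every alternative run; the block was not run there because it coincides with the lines compared. Over all genes, 40 were called, against 7 without the dimmest 50%, 62 with an intensity trend, 18 with the feeder covariate, 82 with the 4 other arrays pooled and between 14 and 26 with each hairpin array left out. The change of Hormad1 turned to -0.0495 without uninduced hairpin 1 (-0.0495 to 0.3846 with each hairpin array left out). The difference of Syce2 from scrambled turned to -0.0621 without that array (-0.0621 to 0.1282) and to -0.0797 with the feeder covariate. None of these passed. Apart from fewer genes or arrays tested, causes were not tested. Leaving out a scrambled array ends the comparisons that use it. With 6 arrays, small changes such as that of Sycp3 are resolved only to the intervals given.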

Other observations

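Markers of male germ cells after meiosis gave no call with the knockdown. Of 8 such genes, among them the protamine genes Prm1 and Prm2 and the transition protein genes Tnp1 and Tnp2, 0 passed (smallest limma adjusted p = 0.547), and 1 had an unadjusted p under 0.05. Over all 19938 genes 0.191% were called higher and 0.01% lower, and 1745 had an unadjusted limma p under 0.05. Both counts for the 8 are thus near the shares over all genes. Their changes under the Pcgf6 hairpins lay between -0.22 for Prm1 and 0.06 for Prm2, with a median of -0.05. For 5 of the 8 the mean level was below the lower quartile of all genes. All 8 were lower with dox in the scrambled pair, where 53.4% of all genes were. Their median there was -0.11, against -0.01 over all genes.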
